A study of Mus musculus with 25 samples.

Results

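The nuclear genes for subunits of the mitochondrial respiratory chain and ATP synthase were followed in 25 mouse hearts. Genes were taken by symbol: Nduf followed by a, b, c, s or v and a number for complex I, Sdha to Sdhd for complex II, Uqcr for complex III, Cox4 to Cox8 for complex IV and Atp5 for complex V. Of the 56941 genes counted, 97 matched, 8 of them with "-ps" in the symbol and another 8 with a mean CPM (the usual count scaled by library size) below 1 over the 25 hearts, and these 16 rows were left out. The remaining 81 subunit genes comprised 37 of complex I, 4 of complex II, 8 of complex III, 15 of complex IV and 17 of complex V, and all 81 passed the filter on low counts. Just inside the level threshold lay Cox4i2, with a mean of 4.19 CPM, and just outside it Cox6b2, with 0.944 CPM. The pattern does not reach Cyc1, the cytochrome subunit of complex III, or Ndufab1, the acyl carrier protein of complex I.

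Complexes I to IV pass electrons from NADH and succinate to oxygen, complexes I, III and IV pump protons out of the mitochondrial matrix, and complex V, the ATP synthase, uses the return of those protons to make ATP. Complex II is built wholly from nuclear genes, whereas in the other complexes nuclear subunits are joined by a few that the mitochondrial genome encodes. Most of the complexes have core subunits, which carry the catalysis, and small accessory subunits around them. Heart muscle depends on this pathway for nearly all of its ATP, and some complex IV subunits have a muscle-type isoform beside the ubiquitous one.

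The study compared wild-type hearts (WT) with hearts labelled MCT1KO, a knockout of the monocarboxylate transporter MCT1 that carries lactate and pyruvate across membranes, under angiotensin and phenylephrine (Ang/PE), agonists that the series describes as a cause of hypertrophy. There were 4 WT and 3 MCT1KO hearts without a pump, 6 WT and 4 MCT1KO hearts with saline, and 3 WT and 5 MCT1KO hearts with Ang/PE. Each heart is named here by group and replicate number. The labels give no strain, age, sex, length of infusion, promoter or Cre line. They do not say whether hearts are littermates or whether RNA was pooled, so p-values measure the spread between these samples.

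Total counts ranged from 12216704 to 24880683 per heart, and every heart without a pump (18382102 or more) was deeper than every heart with Ang/PE (16610416 or less). Slc16a1, the gene for MCT1, was at 203 ± 36.8 CPM in WT (SD, n = 4) and 200 ± 29.6 CPM in MCT1KO hearts (SD, n = 3) without a pump, at 199 ± 29.9 and 158 ± 26 CPM with saline (n = 6 and 4), and at 214 ± 10.6 and 190 ± 21.9 CPM with Ang/PE (n = 3 and 5). The MCT1KO label therefore has no support from the count of its own gene in hearts without a pump, where the groups overlapped; the part of the gene deleted and the cells that lack it are not given. All directions stated below for MCT1KO rest on the label. All 8 markers of cardiomyocytes were expressed, with Myh6 at 17803 to 34172 CPM. MCT1KO saline 4 was the lowest heart for 6 of the 8, among them the myosin light chains Myl2 (839 CPM, and 3489 or more in the others) and Myl3 (592 CPM, and 2506 or more) and myoglobin, Mb (2414 CPM, and 5477 or more). Their part in the results of that heart was not tested.

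Several saline hearts also carried RNA of other tissue. Myl7, a light chain of atrial muscle, was at 4.58 CPM or more in every saline heart other than WT saline 1 (0.465 CPM) and MCT1KO saline 3 (0 CPM), and at 0.785 CPM or less in every heart without a pump or with Ang/PE. MCT1KO saline 4 had the most, together with 551 CPM of the brown fat gene Ucp1, which did not pass 11.4 CPM in any other heart. MCT1KO saline 4 and MCT1KO Ang/PE 5 stood apart in the subunit genes themselves. The first was the lowest of all 25 hearts for 77 of the 81 genes, and the second was lowest for another 2. In these bulk samples, fewer cells of a type and less RNA per cell cannot be told apart.

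Together the 81 genes came to 1.72% to 3.59% of a heart's library size as scaled by its TMM factor. Their summed level, in CPM scaled by the TMM factors used throughout, was 32781 ± 2385 in WT hearts without a pump (SD, n = 4) and lower in the mean of every other group. It was 28719 ± 2851 in MCT1KO without a pump (n = 3), 30236 ± 2995 in WT with saline (n = 6), 24749 ± 5581 in MCT1KO with saline (n = 4), 28380 ± 41.9 in WT with Ang/PE (n = 3) and 26763 ± 3408 in MCT1KO with Ang/PE (n = 5). The 3 WT Ang/PE hearts lay close together at 28353 to 28428 CPM, whereas the MCT1KO saline hearts spread from 17249 to 30755 CPM. Leaving out MCT1KO saline 4, the other 3 hearts of that group held 25418, 25574 and 30755 CPM.

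Complex IV showed the clearest order of groups. Its summed level was 5412, 5149.8, 5418 and 5566 CPM in the 4 WT hearts without a pump. In MCT1KO hearts without a pump it was 4786, 4363 and 3632 CPM, and with WT saline it ran from 3723 to 4744 CPM. Every WT heart without a pump was thus above every heart of both groups, and above the WT Ang/PE hearts as well (4192, 4186 and 4636 CPM). Complex II, by contrast, had nearly the same mean in WT without a pump (2347 ± 336 CPM), MCT1KO without a pump (2307 ± 216 CPM) and WT saline (2399 ± 233 CPM), and these groups overlapped.

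**Figure D1:**
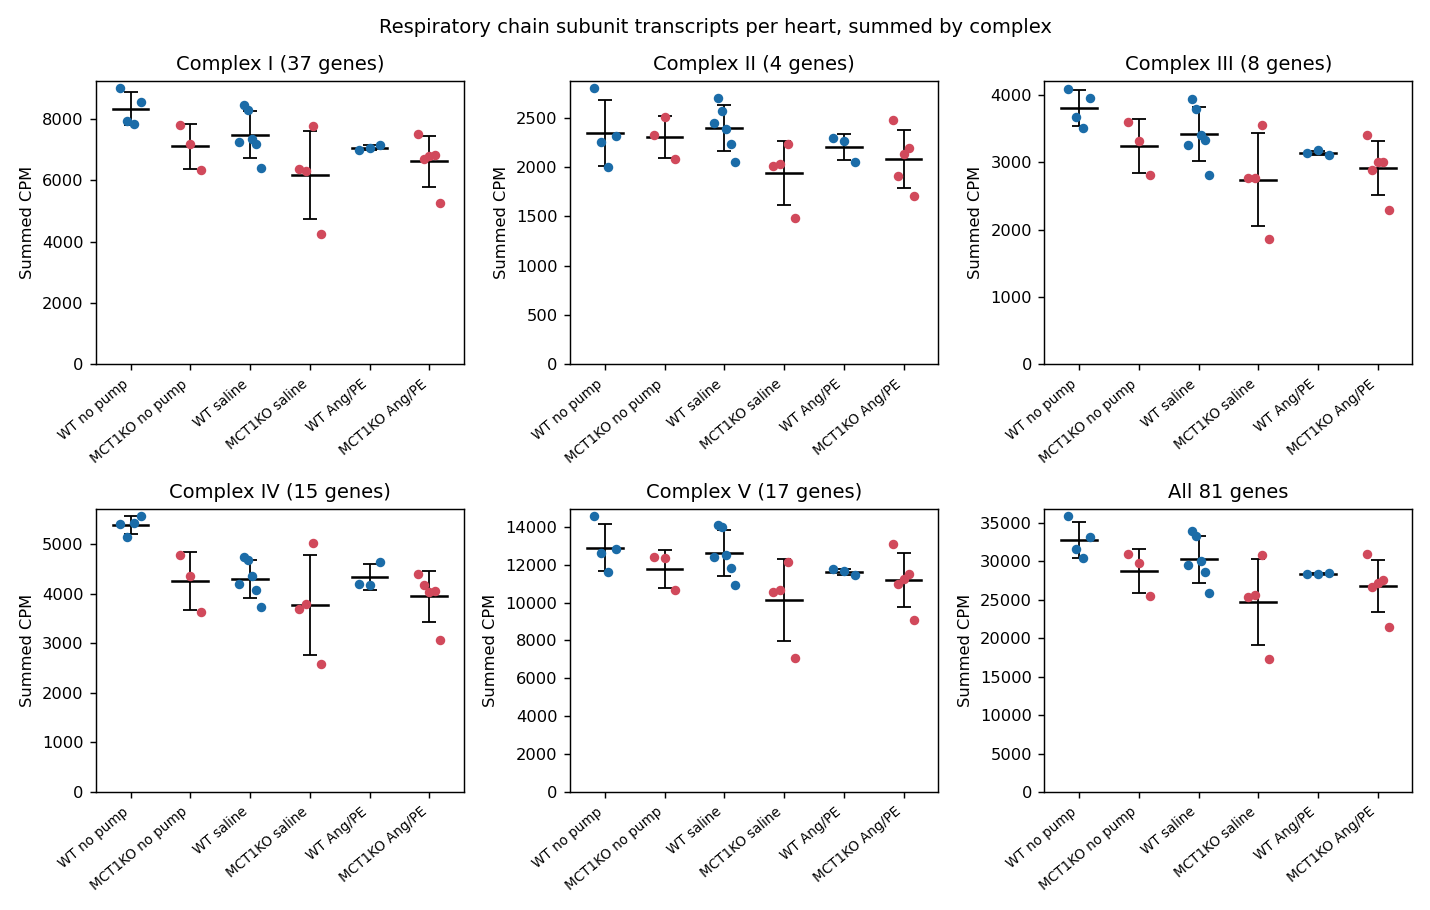
Summed CPM of the subunit genes of each complex (vertical axis) in each heart, by group, with WT in blue and MCT1KO in red. Points are hearts, lines are group means and bars are SD. The 4 WT hearts without a pump lie between 5149.8 and 5566 CPM for complex IV, above the WT saline and WT Ang/PE hearts.

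Per kilobase of transcript, the catalytic beta and alpha subunits of the ATP synthase, Atp5b and Atp5a1, were at 2018 and 1144 CPM per kilobase averaged over the 25 hearts, and Atp5s, coupling factor B, was the lowest of complex V at 9.14. In complex IV the order ran from Cox4i1, the common form of subunit 4, at 1234 CPM per kilobase, to Cox4i2, its alternative form, at 5.74. Complex III ranged from the core protein gene Uqcrc1 at 548 to Uqcrq at 170. Complex I ranged from Ndufa4, now usually counted with complex IV, at 533 to its relative Ndufa4l2 at 12.1. In complex II the catalytic pair Sdha and Sdhb stood level at 400 and 399 CPM per kilobase, above the membrane anchors Sdhd at 211 and Sdhc at 109.

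Saline against no pump in WT hearts was the only comparison in which edgeR called subunit genes in the main fit. Of the 81 genes, 16 fell and none rose (edgeR's quasi-likelihood test with Benjamini-Hochberg adjustment over 17682 genes, adjusted p below 0.05). That is 19.8% of the members; over all genes tested, 6.61% were called and 4.22% were called lower. The members' median log2 change was -0.26 against 0.00 over all genes, and 68 of 81 were below 0 (84%, against 49.7% of all genes). By complex, 7 of 37 genes of complex I fell, 0 of 4 of complex II, 2 of 8 of complex III, 4 of 15 of complex IV and 3 of 17 of complex V. At an unadjusted p below 0.05, 40 were lower (49.4%, against 12.9% of all genes), and 1 of them was in complex II. DESeq2 called 22 members lower, and of 17682 genes 888 higher and 1072 lower.

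Cox7b, a small accessory subunit of complex IV, was at 482, 523, 589 and 593 CPM in the 4 WT hearts without a pump and between 272 and 344 CPM, median 316, in the 6 with saline. No saline heart reached the lowest heart without a pump. Cox7b fell by 0.81 on the log2 scale (SE 0.17, edgeR adjusted p = 0.0114). Cox7a2, the ubiquitous form of subunit 7a, was at 249, 271, 291 and 292 CPM without a pump and between 146 and 186 CPM, median 166, with saline. It fell by 0.73 (SE 0.15, edgeR adjusted p = 0.0106), again without overlap. The other called genes of complex IV were Cox6c, which fell by 0.64 (SE 0.18, edgeR adjusted p = 0.0350), and Cox8b, the muscle-type subunit 8, which fell by 0.48 (SE 0.14, edgeR adjusted p = 0.0469).

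In complex I, Ndufb4, an accessory subunit of the membrane arm, was at 80.1, 77.5, 98.7 and 94.1 CPM without a pump and between 49.6 and 60.1 CPM, median 57.0, with saline. It fell by 0.67 (SE 0.15, edgeR adjusted p = 0.0158). Ndufa4 fell by 0.65 (SE 0.16), Ndufa1 by 0.51 (SE 0.14), Ndufv2 by 0.48 (SE 0.14), Ndufa7 by 0.47 (SE 0.12), Ndufa3 by 0.47 (SE 0.14) and Ndufa6 by 0.40 (SE 0.11), with edgeR adjusted p between 0.0188 and 0.0471. Ndufv2, an iron-sulfur protein that works beside Ndufv1, is the only one of these 7 complex I genes whose product is a core subunit. Ndufa4 was at 446, 407, 508 and 489 CPM without a pump and at 249.7 to 317 CPM with saline, so that its groups did not overlap.

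The called genes of complex III were Uqcrb, which fell by 0.53 (SE 0.15, edgeR adjusted p = 0.0364), and the hinge protein gene Uqcrh, which fell by 0.47 (SE 0.13, edgeR adjusted p = 0.0351). Uqcrh was at 334, 323, 364 and 356 CPM without a pump and at 226 to 266 CPM with saline. In complex V the called genes belonged to the membrane part: Atp5j2, subunit f, fell by 0.61 (SE 0.14, edgeR adjusted p = 0.0167), Atp5l, subunit g, by 0.58 (SE 0.15, edgeR adjusted p = 0.0240), and Atp5g2, which encodes the proton-carrying c subunit, by 0.42 (SE 0.12, edgeR adjusted p = 0.0416). Atp5j2 was at 252, 239, 291 and 273 CPM without a pump and at 153 to 195 CPM with saline. All 16 called genes were separated in this way between the groups, as were 32 of the 81 members (39.5%) in the same direction, where the share over all genes was 6.22%.

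**Figure D2:**
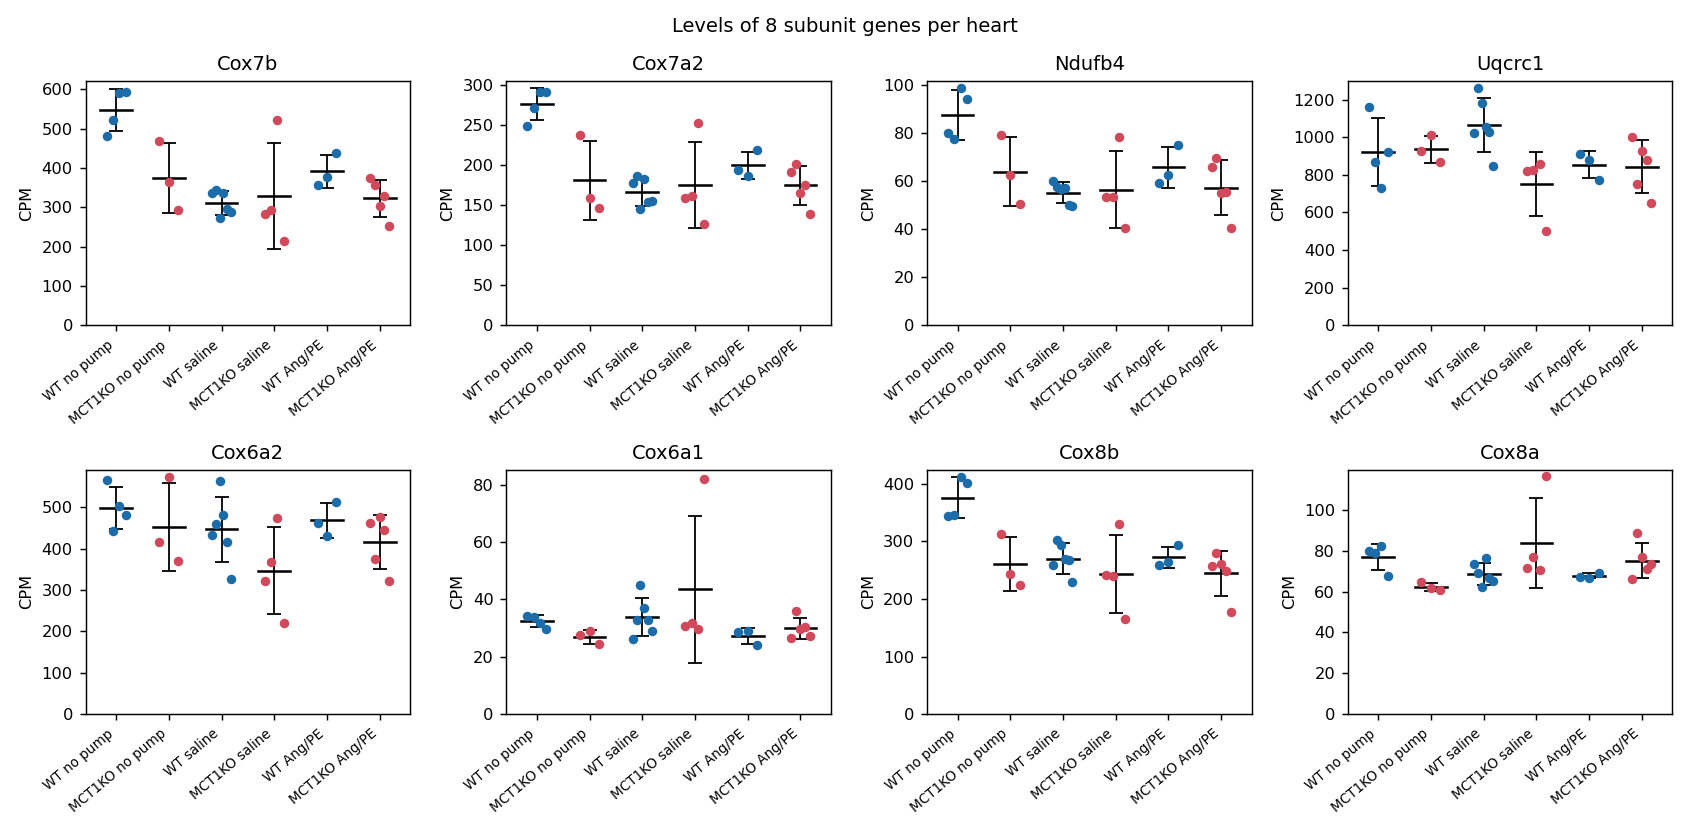
CPM (vertical axes) of 8 subunit genes in each heart, by group, with WT in blue and MCT1KO in red; lines are group means and bars are SD. Cox7b, Cox7a2 and Ndufb4 are highest in the WT hearts without a pump, Uqcrc1 overlaps between those hearts and WT saline, and 1 MCT1KO saline heart stands above all others for Cox6a1 (82.1 CPM) and Cox8a (117 CPM).

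None of 10 listed core or catalytic genes (among them Ndufs1 and Ndufv1 of complex I, Sdha and Sdhb of complex II, Uqcrc1 of complex III, Cox5a for complex IV, whose catalytic subunits are mitochondrial, and Atp5a1 and Atp5b of complex V) was called in WT saline hearts, in edgeR with 0 at an unadjusted p below 0.05. The list does not hold every core subunit. Ndufs7 and Ndufv2 of complex I are among the other 71 members, and Ndufv2 is one of those called lower. Nor is every listed gene catalytic, as with Cox5a, and the 10 core genes named below are those of the list. The median log2 change of the 10 was 0.11 and 6 of 10 were above 0. The other 71 members had a median of -0.29. The uncalled values nearest to a rise were 0.27 for Ndufv1, the NADH-binding subunit (SE 0.14, edgeR adjusted p = 0.221), and 0.21 for Uqcrc1 (SE 0.15, edgeR adjusted p = 0.425). Ndufv1 was at 697, 519.7, 474 and 527 CPM without a pump and between 609 and 784 CPM, median 624, with saline, so the groups overlapped. The difference between the 2 sets of genes was not tested, and they also differ in size: the 10 had a median transcript length of 1657 bases and the other 71 of 765 bases.

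The change moved with transcript length over the members. The 81 genes had a median length of 865 bases, against 2872 bases over all genes tested. Of the 16 called genes, 14 were among the 48 members under 1000 bases, whose median log2 change was -0.32, and 2, Cox7b and Ndufv2, were among the 33 longer ones, whose median was -0.19. Other genes under 1000 bases, 1734 in all, had a median of -0.16, and 8.07% of them were called lower. With offsets for GC content and length in each library, the members' median was -0.09 and 2 members, Cox7a2 and Ndufb4, were called lower. Of 17682 genes, 57 were called lower in that fit.

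**Figure D3:**
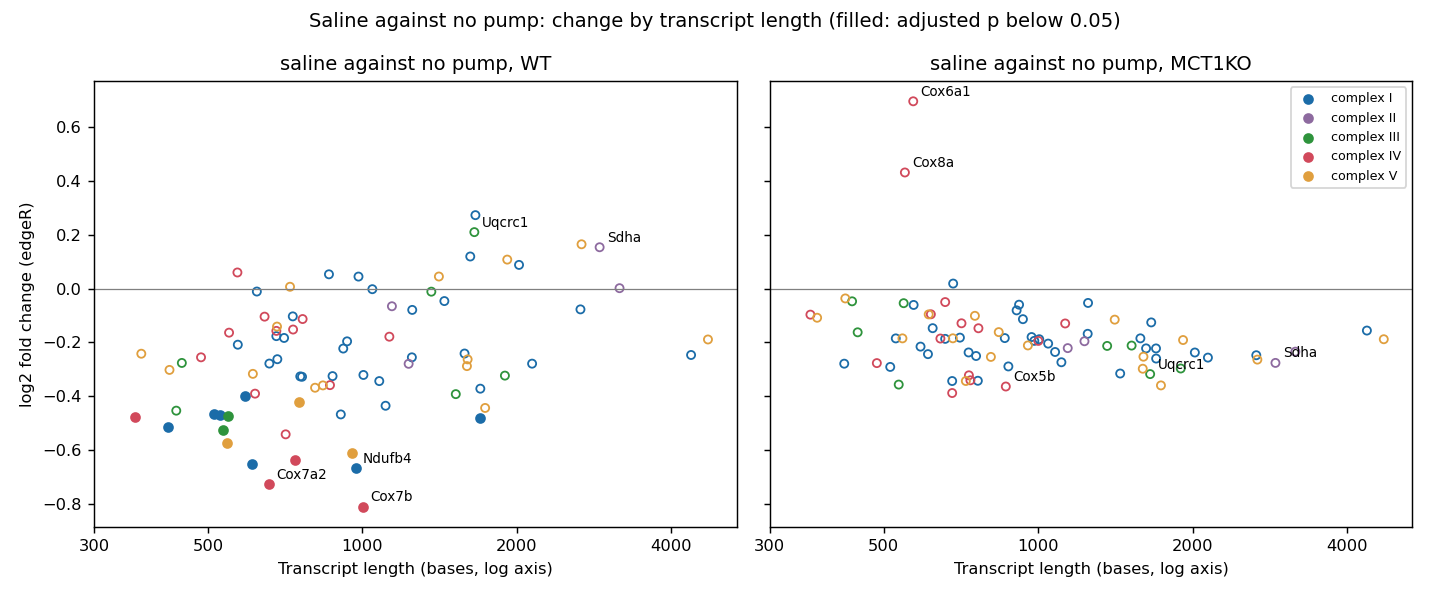
Log2 change of saline against no pump from edgeR (vertical axis) for each of the 81 genes against transcript length in bases (log axis), in WT (left) and MCT1KO (right). Colours give the complex and filled points have an adjusted p below 0.05. In WT the 16 filled points are all below 0 and 14 lie under 1000 bases; in MCT1KO none is filled.

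Other gene lists were counted in the same comparison, where 4.22% of all genes were called lower. Of 88 cytosolic ribosomal protein genes, 59 fell, with a median of -0.45. Of 78 mitochondrial ribosomal protein genes, 13 fell (median -0.15), and of 47 assembly factors of the respiratory complexes 4 fell: Sdhaf4, Uqcc2, Coa6 and Tmem126b (median over the list -0.03). Among the 13 protein genes of the mitochondrial genome, the ATP synthase subunits mt-Atp6 and mt-Atp8 fell by 1.51 (SE 0.36) and 0.99 (SE 0.28), and the complex IV subunit mt-Co3 by 0.92 (SE 0.23), with edgeR adjusted p of 0.0213, 0.0389 and 0.0248. None of 17 genes for electron carriers and coenzyme Q synthesis was called. Of the genes the pattern leaves out, Cyc1 changed by 0.10 and Ndufab1 by -0.16, neither called, and the ATP synthase inhibitor gene Atpif1 by -0.39 (edgeR adjusted p = 0.189).

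In the same comparison 3 of the 4 atrial markers rose; their summed level was 60.3 to 132 CPM in WT hearts without a pump and 46.6 to 2596 CPM in WT saline. With atrial and fat marker scores as covariates, 0 of 81 members and 0 of all genes were called and the members' median was -0.19, with 10 members lower at an unadjusted p below 0.05 in edgeR. In that fit 1357 of 17682 genes passed the same threshold in either direction. WT saline 1, which nearly lacked atrial markers, held 335 CPM of Cox7b and 178 CPM of Cox7a2, within the range of the other WT saline hearts and below every WT heart without a pump. These are 2 genes in 1 heart, and the part of atrial RNA in the comparison was not tested. The count of 16 rested on few hearts: it was 0 without WT no pump 3, 2 without WT no pump 4, 10 without WT no pump 2, 8 without WT saline 3, and 7 without WT saline 5 and without WT saline 6. It was 31 without MCT1KO saline 4 and MCT1KO Ang/PE 5, and 38 in a fit of the 2 groups alone. Without the filter on low counts it was 8, and with Xist as a covariate 3. The number of all genes called lower moved as well. It was 746 in the main fit, 55 without WT no pump 3, 169 without WT no pump 4 and 351 without WT no pump 2. Without WT saline 3, 5 and 6 it was 394, 414 and 557. It was 1033 without the 2 MCT1KO hearts, 1326 in the fit of 2 groups, 347 without the filter and 361 with Xist.

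In MCT1KO hearts the same step, saline against no pump, gave 0 called members in edgeR (0.00566% of all genes were called). DESeq2 called 0 members too, and of 17682 genes 177 higher and 32 lower. At edgeR's unadjusted p below 0.05, 5 were lower and 2 higher, where all genes gave 4.68% and 7.43%. The median was -0.19, and 78 of 81 were below 0. Cox7b was at 469.6, 364 and 293 CPM without a pump and at 283, 292, 523 and 215 CPM with saline. The MCT1KO hearts without a pump were already below the WT ones for this gene and overlapped with saline. The 2 that were higher were ubiquitous complex IV isoforms, and their groups did not overlap, as was so for 4.67% of all genes: Cox8a at 0.43 (SE 0.13, edgeR adjusted p = 0.183) and Cox6a1 at 0.70 (SE 0.26, edgeR adjusted p = 0.275). MCT1KO saline 3, the saline heart without Myl7 counts, held 523 CPM of Cox7b, and without it 5 members were called lower and 1 higher, with a median of -0.33, while of 17665 genes 203 were called lower and 423 higher. Of all members, Sdha, Atp5a1, Uqcrc1 and Ndufa10 were the 4 in which every saline heart lay below every heart without a pump (3.93% of all genes). Without MCT1KO saline 4 the median was -0.06, no member was called, and the values were 0.24 for Cox8a and 0.20 for Cox6a1.

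The difference between the genotypes in this step was tested as an interaction, and 0 members were called in edgeR (0.00566% of all genes were), with 3 higher and 2 lower at an unadjusted p below 0.05, where all genes gave 8.86% and 8.35%. Without MCT1KO saline 4, 0 were called, 18 were higher and 0 lower at that threshold, and the members' median was 0.23 (0.08 in the main fit). Of 17547 genes, 2746 then passed the threshold in either direction. DESeq2 called 148 of 17682 genes higher and 190 lower, with 1 member among them, Cox8a, at 0.59 (DESeq2 adjusted p = 0.0453), where edgeR gave 0.60 (SE 0.17, adjusted p = 0.132), and 0.40 without MCT1KO saline 4 (adjusted p = 0.150). The interaction of Cox7a2 was 0.68 (SE 0.23, edgeR adjusted p = 0.159) and of Cox7b 0.62 (SE 0.27, edgeR adjusted p = 0.247). For all 10 core genes the interaction was below 0, from -0.53 for Uqcrc1 (SE 0.24, edgeR adjusted p = 0.258) to -0.08 for Cox5a, whereas 52 of the other 71 members were above 0. The no pump and saline hearts that enter it are those of the comparisons above.

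**Figure D4:**
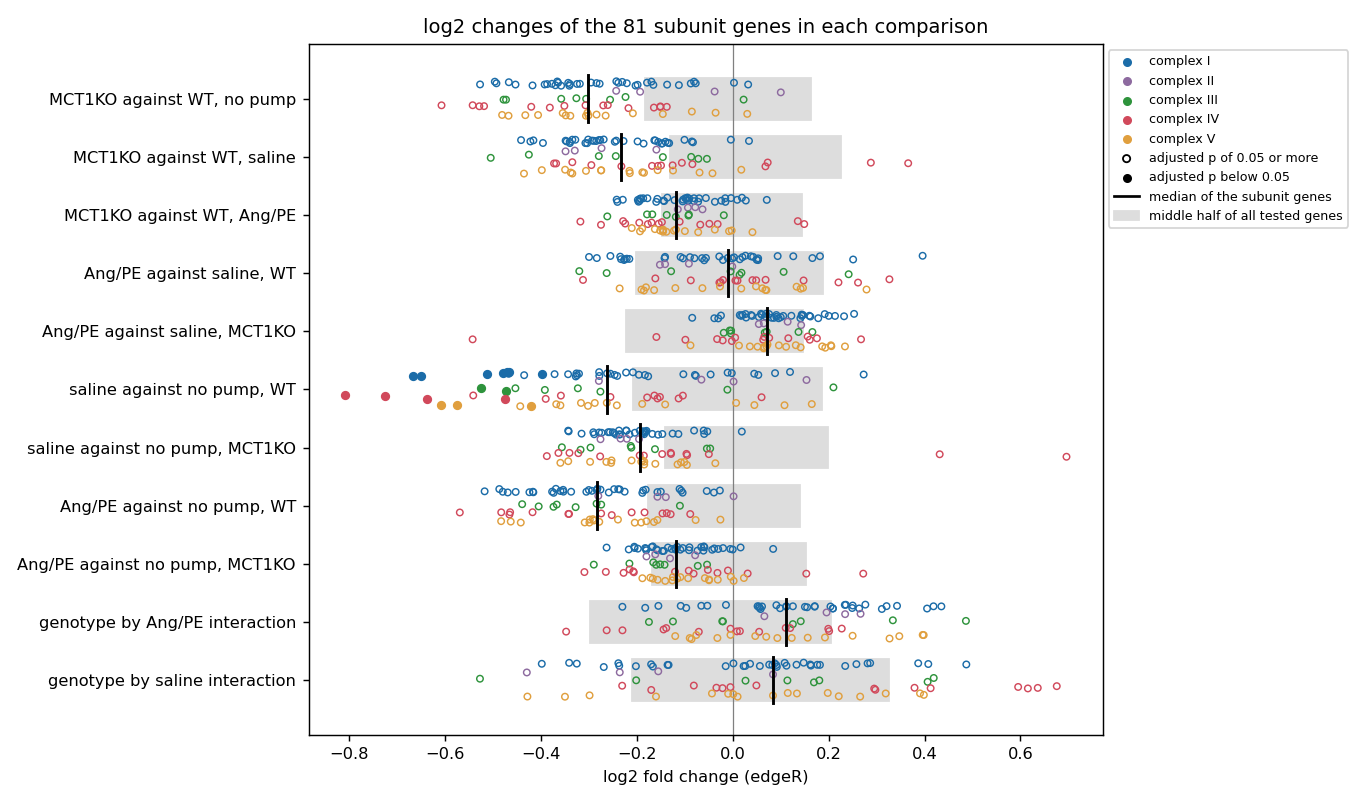
Log2 changes from edgeR (horizontal axis) of the 81 subunit genes in each of the 11 comparisons, coloured by complex. Filled points have an adjusted p below 0.05, black lines are the members' medians and grey bands hold the middle part of all tested genes. Filled points occur only for saline against no pump in WT.

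MCT1KO against WT hearts without a pump gave 0 called members in edgeR (0% of all genes were called) and 0 in DESeq2, while 29 members (35.8%) were lower at an unadjusted p below 0.05, where the share over all genes was 6.74%. The median was -0.30 against 0.00 over all genes, and 76 of 81 were below 0 (50.4% of all genes). In 43 members (53.1%) every MCT1KO heart lay below every WT heart, against 6.47% of all genes. The medians were -0.30 for complex I, -0.12 for complex II, -0.32 for complex III, -0.31 for complex IV and -0.30 for complex V, and all 15 genes of complex IV were below 0.

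Cox7a2 was at 249, 271, 291 and 292 CPM in WT and at 238, 159 and 146 CPM in MCT1KO hearts without a pump. The groups did not overlap, but the difference of -0.61 (SE 0.18) had an edgeR adjusted p of 0.227. Cox8b, at 345, 346, 412 and 401 CPM against 313, 244 and 225 CPM, differed by -0.53 (SE 0.17, edgeR adjusted p = 0.260). Ndufc2, an accessory subunit of the membrane arm of complex I, was at 115, 106, 117 and 117 CPM against 99.8, 78.4 and 68.2 CPM. Its difference was -0.47 (SE 0.16, edgeR adjusted p = 0.267). In all 3 genes MCT1KO no pump 3 was the lowest and MCT1KO no pump 1 the nearest to WT.

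Among the 10 core genes the median difference was -0.06 and 4 were above 0. Sdha, the catalytic subunit of complex II, was at 1446, 1085, 971 and 1093 CPM in WT and at 1182, 1396 and 1116 CPM in MCT1KO hearts, with overlap and a difference of 0.10 (SE 0.15, edgeR adjusted p = 0.846). Atp5a1 differed by 0.03, a value that turned to -0.05 without WT no pump 3. With GC and length offsets the median of all members was -0.10 and that of complex IV -0.07. The cytosolic ribosomal protein genes had a median of -0.48 in this comparison, with 0 of 88 called.

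With saline, MCT1KO against WT again gave 0 called members in edgeR (0% of all genes) and 0 in DESeq2. Of 17682 genes DESeq2 called 81 higher and 65 lower. At edgeR's unadjusted p below 0.05, 29 members were lower and 1 higher. Over all genes 8.62% were lower and 8.43% higher at that threshold. The median was -0.23 against 0.03 over all genes, and 75 of 81 were below 0 (45.3% of all genes). All 10 listed core genes were below 0, 9 of them at an unadjusted p below 0.05, with a median of -0.37 and values from -0.51 to -0.23. The other 71 had a median of -0.19 and values from -0.44, for Ndufs7, to 0.37, and the difference between the sets was not tested.

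Uqcrc1, a core protein of complex III, was between 846 and 1260.35 CPM, median 1039, in WT saline hearts and at 822, 825, 856 and 499.7 CPM in MCT1KO saline hearts. All but 1 MCT1KO heart lay below the WT range. The difference was -0.51 (SE 0.15, edgeR adjusted p = 0.154). Ndufs7, which holds the last iron-sulfur cluster of complex I before quinone, differed by -0.44 (SE 0.14, edgeR adjusted p = 0.167). Every MCT1KO saline heart was below every WT saline heart for 3 members, Sdha, Atp5a1 and Ndufv1, or 3.7% of the members against 1.82% of all genes. Atp5a1 was between 2921 and 3846 CPM, median 3389.98, in WT and at 2847, 2835, 2891 and 1817 CPM in MCT1KO hearts.

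The MCT1KO saline values rested on hearts that pulled apart. Without MCT1KO saline 4 the median over the members was -0.08 and 4 were lower at an unadjusted p below 0.05. Of 17547 genes 1209 then passed that threshold in either direction. Without MCT1KO saline 3 the members' median was -0.37, with 69 lower at that threshold and 1 called. Of 17665 genes 3659 then passed that threshold in either direction and 250 were called. With atrial and fat marker scores as covariates the median was 0.03. The summed atrial markers were 46.6 to 2596 CPM in WT and 64.1 to 7385 CPM in MCT1KO saline hearts.

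With Ang/PE, MCT1KO against WT gave 0 called members in edgeR (0% of all genes) and 0 in DESeq2, and 0 members at an unadjusted p below 0.05. The median was -0.12 and 74 of 81 were below 0. Ndufv3, an accessory subunit of the NADH-binding part of complex I, was at 132, 125 and 136 CPM in WT and at 122, 104, 124, 117 and 84.7 CPM in MCT1KO hearts. Its groups did not overlap, with a difference of -0.24 (SE 0.12, edgeR adjusted p = 0.716). Ndufa3 was the only other member without overlap, so that 2 of 81 were separated, or 2.47%, near the 2.1% of all genes. Without MCT1KO Ang/PE 5 the members' median was -0.04.

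Ang/PE against saline asks what the agonists add to saline. In WT hearts 0 members were called in edgeR (0.017% of all genes were) and 0 in DESeq2. Of 17682 genes DESeq2 called 364 higher and 280 lower. Only Ndufa12 was higher at edgeR's unadjusted p below 0.05 (9.47% of all genes were). The members' median was -0.01, and 44 of 81 were below 0. Ndufa12, an accessory subunit of the complex I arm that binds NADH, was at 109.5, 110.3 and 122 CPM with Ang/PE and between 65.2 and 109 CPM, median 85.8, with saline. The groups came close without overlap, and the difference was 0.40 (SE 0.16, edgeR adjusted p = 0.178). Cox7b and Cox7a2 were separated in the same direction (6.39% of all genes were) and Ndufv1 in the other (7.16%). All 10 core genes were below 0 (median -0.19), led by Uqcrc1 at -0.32 (SE 0.17, edgeR adjusted p = 0.306) and Ndufv1 at -0.30 (SE 0.15, edgeR adjusted p = 0.279).

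In MCT1KO hearts Ang/PE against saline gave 0 called members in edgeR and 0 in DESeq2, although edgeR called 4.46% of all genes. Of 17682 genes DESeq2 called 563 higher and 661 lower. The members' median in edgeR was 0.07 and 66 of 81 were above 0. It was -0.06 without MCT1KO saline 4 and 0.24 without MCT1KO saline 3. Cox6a1, the ubiquitous form of subunit 6a, was the only member lower at an unadjusted p below 0.05 (11% of all genes were), at -0.54 (SE 0.22, edgeR adjusted p = 0.167). It was at 26.7, 36, 29.5, 30.3 and 27.1 CPM with Ang/PE and at 30.7, 31.9, 29.7 and 82.1 CPM with saline. The groups overlapped, and 1 saline heart, MCT1KO saline 4, was above all the rest; without it the difference was -0.04 (edgeR adjusted p = 0.928). All 10 core genes were above 0 (median 0.14). The Ang/PE by genotype interaction was above 0 for all 10 as well, from 0.17 for Ndufs1 to 0.49 for Uqcrc1 (SE 0.23, edgeR adjusted p = 0.364). No member was called for it in edgeR or DESeq2 (0% of all genes in edgeR), with 3 higher at an unadjusted p below 0.05 (7.48% of all genes were). The median was 0.11, and -0.05 without MCT1KO saline 4.

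Ang/PE against no pump sets the agonists beside hearts with no pump and shares those hearts with the saline comparisons. In WT 0 members were called in edgeR (0% of all genes) and 0 in DESeq2, while 24 were lower at an unadjusted p below 0.05, where the share over all genes was 5.11%. The median was -0.28 and 80 of 81 were below 0. All 3 Ang/PE hearts lay below all 4 hearts without a pump for 51 members (63%, against 7.07% of all genes). The medians by complex were -0.28, -0.15, -0.35, -0.27 and -0.28 from I to V.

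Ndufc2 was at 77.6, 84.1 and 76.3 CPM in these WT Ang/PE hearts, below the 106 to 117 CPM without a pump, with a difference of -0.52 (SE 0.16, edgeR adjusted p = 0.384). Cox7b was at 358, 377 and 439 CPM with Ang/PE, between the WT hearts with saline and those without a pump. In these 3 hearts Myl7 did not pass 0.214 CPM and Ucp1 had no counts, while Nppa, the atrial natriuretic peptide gene, was at 152 to 315 CPM against 58.6 to 130 CPM without a pump. Its part in the result was not tested. In MCT1KO hearts Ang/PE against no pump gave 0 called members in edgeR (0.503% of all genes were called). DESeq2 called 0 members, and of 17682 genes 227 higher and 158 lower. In edgeR the members' median was -0.12. Only Cox8a was higher at an unadjusted p below 0.05 (7.01% of all genes were higher). Cox8a differed by 0.27 (SE 0.13, edgeR adjusted p = 0.349) and did not overlap (4.49% of all genes). In those hearts mt-Atp6 fell by 1.83 (edgeR adjusted p = 0.0457).

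Muscle-type and ubiquitous complex IV isoforms parted in 1 heart. Cox6a2 and Cox8b are the muscle-type forms of subunits 6a and 8, and Cox6a1 and Cox8a the ubiquitous forms. In MCT1KO saline 4, Cox6a1 was at 82.1 CPM and Cox8a at 117 CPM, each the highest of the 25 hearts, while Cox6a2 was at 220.4 CPM and Cox8b at 165 CPM, each the lowest. The ratio of Cox6a2 to Cox6a1 was 2.68 there and 10.4 to 21.4 in all other hearts. The ratio of Cox8b to Cox8a was 1.41 there and 2.41 to 5.91 in all others. This is the heart with 551 CPM of Ucp1. The part of brown fat RNA in these ratios was not tested.

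Promoter sequence is shown for 3 of these isoforms, Cox6a1, Cox8a and Cox8b. The 250 bases before the RefSeq start (build GRCm38.p6, read on the gene's strand) are printed for Cox6a1 at chr5:115348959-115349208, Cox8a at chr19:7217617-7217866 and Cox8b at chr7:140900447-140900696, all on the minus strand. Capitals mark the NRF1 palindrome, the same palindrome with its 2 central bases open, and the ETS-family letters CCGGAAG on either strand.
Cox6a1: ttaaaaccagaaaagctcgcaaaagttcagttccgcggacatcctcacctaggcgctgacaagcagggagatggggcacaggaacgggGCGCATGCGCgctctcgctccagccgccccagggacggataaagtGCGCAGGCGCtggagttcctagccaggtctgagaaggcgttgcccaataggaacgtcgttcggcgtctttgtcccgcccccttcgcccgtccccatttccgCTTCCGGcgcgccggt
Cox8a: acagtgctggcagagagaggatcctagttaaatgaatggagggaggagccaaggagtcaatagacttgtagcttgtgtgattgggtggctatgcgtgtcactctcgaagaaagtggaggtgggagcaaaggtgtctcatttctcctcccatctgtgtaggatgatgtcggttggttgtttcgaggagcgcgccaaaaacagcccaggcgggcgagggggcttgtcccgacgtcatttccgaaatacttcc
Cox8b: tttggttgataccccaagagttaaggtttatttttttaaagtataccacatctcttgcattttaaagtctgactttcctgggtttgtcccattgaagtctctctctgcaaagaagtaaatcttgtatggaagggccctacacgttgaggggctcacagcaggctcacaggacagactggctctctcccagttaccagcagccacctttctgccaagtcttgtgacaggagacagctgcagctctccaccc
Cox6a1 holds all 3, and neither Cox8a nor Cox8b holds any in this window.

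Of the 81 members, 64 had a RefSeq promoter window, 69 windows in all. The palindrome of nuclear respiratory factor NRF1 stood in 4 of them (5.80%; Atp5g2, Atp5k, Cox6a1 and Ndufa11) and in 0.782% of all 32851 windows. The palindrome with 2 open bases, which includes the former, stood in 15 (21.7%, against 4.98%), and CCGGAAG, the core of GABP and other ETS factors, in 12 (17.4%, against 6.91%). TCAAGGTCA, the site of estrogen-related receptors, was in 1 (Atp5g3; 1.45%, against 0.387%), AAGATGGC of YY1 in 1 (Atp5j; 1.45%, against 1.57%), CCAAT in 28 (40.6%, against 33.9%) and the MEF2 site in 0 (against 0.140%). Both strands were searched, CCAAT is not capitalised above, and a match is a run of letters, not a measured binding site.

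Subunit 7a parted otherwise. The ratio of the muscle-type Cox7a1 to Cox7a2 was 1.61 ± 0.113 in WT hearts without a pump (SD, n = 4) and 2.23 ± 0.432 in WT saline (SD, n = 6), and all 6 saline hearts were above all 4 without a pump. Cox7a1 itself was at 436, 415, 437 and 480.02 CPM without a pump and between 295 and 443 CPM, median 358, with saline. The groups overlapped for Cox7a1 and did not for Cox7a2. In MCT1KO hearts the ratio went the other way, from 1.96 ± 0.287 without a pump (SD, n = 3) to 1.61 ± 0.294 with saline (SD, n = 4), and the groups overlapped. Cox4i1 exceeded Cox4i2 by 167 to 319 times over the 25 hearts, and Ndufa4 exceeded Ndufa4l2 by 20.8 to 40.4 times.

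**Figure D5:**
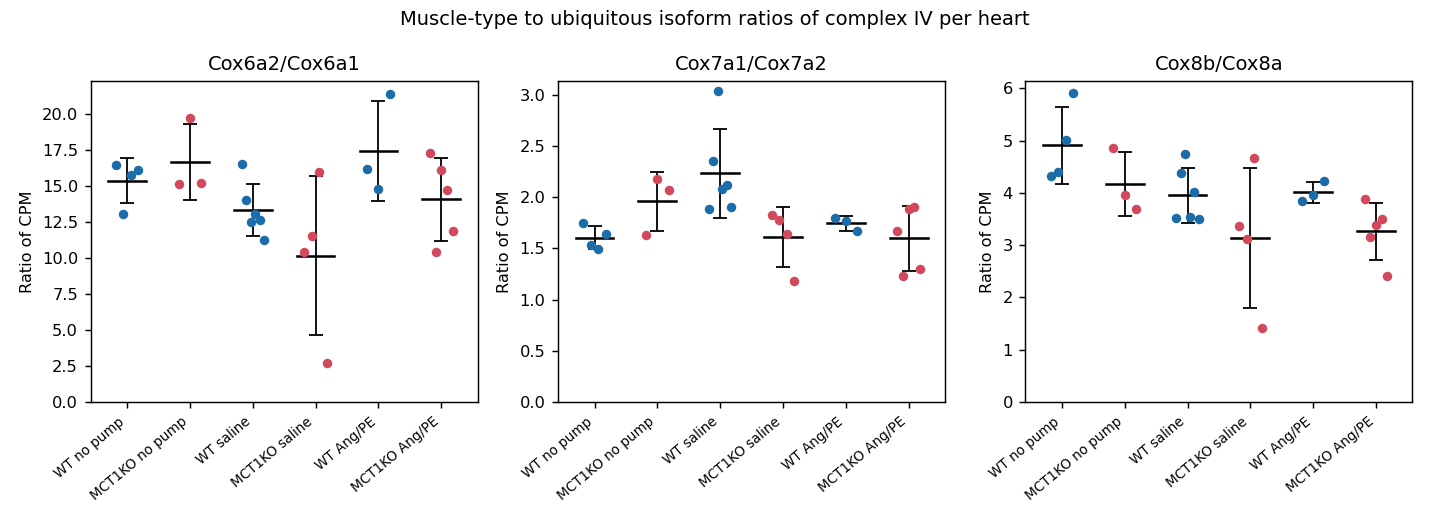
Ratio of CPM of the muscle-type to the ubiquitous isoform (vertical axes) of complex IV subunits 6a, 7a and 8 in each heart, by group, with WT in blue and MCT1KO in red; lines are means and bars are SD. MCT1KO saline 4 is the lowest point in each panel, at 2.68, 1.18 and 1.41.

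Around their group means the subunit genes moved together over the 25 hearts. The correlation of a member with the mean of the other members, on log2 CPM centred on each group, had a median of 0.90, was above 0.8 for 66 of 81 and was below 0.5 for 2, Cox8a at -0.55 and Cox6a1 at -0.45. All genes of a heart share its depth, its tissue makeup and its TMM factor, and the 2 hearts that stand apart are among the 25. Sums of complexes I and III were the closest pair (r = 0.993), and those of II and IV the least alike (r = 0.753). Outside the members, the genes most like their mean were Mpc2, a subunit of the mitochondrial pyruvate carrier (r = 0.973), Cycs, cytochrome c (0.963), the mitochondrial peroxiredoxin gene Prdx3 (0.954), Mdh1, cytosolic malate dehydrogenase (0.953), and Minos1, a part of the complex that shapes the inner membrane (0.948).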

How the data were processed

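RNA was sequenced from 25 mouse hearts with a directional kit after ribosomal RNA removal, per the labels' protocols. The authors deposited raw read counts per gene. The submitters' processing notes name cutadapt 1.16, STAR 2.7.9a, featureCounts 1.6.3, DESeq2 1.42.1 and the build GRCm39, with no roles; the strand setting of the counting is not given in the sources used here. Genes without a symbol held 0.778% of reads. Processed copies of subunit genes may share reads with their parents, so single values carry that uncertainty.

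Counts were fitted with edgeR 4.0.16 (TMM, filterByExpr, robust quasi-likelihood, R 4.3.3) in 1 model of the 6 groups with 19 residual degrees of freedom. The biological coefficient of variation was 0.196. P-values are two-sided and adjusted within each of 11 comparisons over 17682 genes; SE is the absolute log2 change divided by the square root of F. The script was tested on simulated data. No pair of hearts of a group agreed within sampling noise (lowest chi-square per degree of freedom 3.33 over 43 pairs).

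The members and lists were chosen with earlier results of these data known. Genes named are, per comparison, the 3 of smallest p in each direction, plus isoform pairs, 10 listed core subunits, Atpif1, the extremes of level per length, the 5 most alike genes outside the set, and all called members; 1 gene that this rule selects is not reported here, though the counts over members include it. Genes shown without overlap were named after their values were seen. Lengths and GC come from a GRCm38 annotation. 13 alternatives were tried besides leaving out single hearts; the thinned counts and the fit without 2 hearts were added after seeing the data.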

Additional observations from a re-analysis of the deposited data

Results flagged for a closer look

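Within groups of 4 to 6 hearts, the highest or lowest heart of each named gene and complex sum was tested by Dixon's criterion on log2 CPM, and 21 of 184 tests flagged a heart where chance gives 9.2. Of the 21, 8 lay in MCT1KO saline 4 and 9 in MCT1KO Ang/PE 5.

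MCT1KO saline 4 was far below the other 3 hearts of its group for 6 genes, with log2 CPM of 10.83 for Atp5a1, 11.38 for Atp5b, 8.10 for Ndufa10, 6.80 for Ndufa8, 9.69 for Sdha and 8.96 for Uqcrc1. It was far above them for the ubiquitous isoforms Cox6a1 (6.36) and Cox8a (6.87). The same heart had 551 CPM of Ucp1, and the part of that tissue in these values was not tested.

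MCT1KO Ang/PE 5 was far below the other 4 hearts of its group for the sum of complex IV, with a log2 CPM of 11.58, or 3071 CPM against 4032 to 4390. It was also low for 8 genes, with log2 CPM of 7.92 for Atp5d, 7.47 for Cox8b, 5.17 for Ndufa1, 6.25 for Ndufa12, 6.55 for Ndufa3, 7.73 for Ndufa4, 6.08 for Ndufa6 and 7.27 for Ndufs7. In it Myl7 stood at 0.06 CPM and Ucp1 had no counts. Nppa was at 1759 CPM, against 313 to 5144 CPM over its group and 58.6 to 130 CPM in WT hearts without a pump. MCT1KO Ang/PE 2 held the most Nppa of the group and was not flagged. The part of these genes in the flagged values was not tested.

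The other flags were single genes. WT no pump 2 was lowest for Atp5s (3.94) and highest for Ndufa4l2 (3.89), WT no pump 1 was highest for Cox5b (7.96), and WT saline 6 was lowest for Ndufa4 (7.96).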

How the results depend on the processing

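The count of 16 members lower in WT saline against no pump was 8 without the filter on low counts, 38 in a fit of only the groups compared, 3 with Xist as a covariate, 0 with atrial and fat scores, 2 with GC and length offsets and 31 without the 2 hearts that stand apart; leaving out single hearts gave 0 to 18. Size factors of RLE, no robust step, removal of mitochondrial genes, thinned counts and DESeq2 gave 15 to 22. Calls over all genes moved as well, from 746 lower in the main fit to 55 without WT no pump 3 and 1326 in the fit of 2 groups. The cause of these shifts was not tested. For MCT1KO against WT with saline, leaving out single hearts gave 0 to 1, and for saline against no pump in MCT1KO 0 to 6. DESeq2 called 1 member in the genotype by saline interaction. In all, 236 of 253 counts stayed within 1.5 times the main count, where a count that stayed at 0 was scored as unchanged. The main count was 0 in every comparison but saline against no pump in WT, where most alternatives moved it further than that. Of the medians, 410 of 418 stayed within the spread between hearts of a group.

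Replicate numbers did not pair the hearts: deviations of 52 same-numbered pairs had a mean correlation of 0.00941 (-0.232 to 0.405), and 3 of 25 hearts correlated best with their own number. With the replicate number as a block, the 16 became 2, Cox7a2 and Cox7b, and 0 with GC and length offsets too. Of all genes, 300 and 7 were then called lower. No other count of called members moved with the block. At an unadjusted p below 0.05 it moved members lower in MCT1KO against WT with saline from 29 to 45 (all genes either way, 3014 to 3759). It moved those in Ang/PE against saline in WT from 0 to 14 (3369 to 3519), and those higher in the Ang/PE interaction from 3 to 20 (2392 to 3301).

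Medians that moved by more than the spread within groups were those of all members with atrial and fat scores, to 0.03 for MCT1KO against WT with saline, -0.28 for Ang/PE against saline in MCT1KO, 0.17 for saline against no pump in MCT1KO, -0.17 for the Ang/PE interaction and 0.33 for the saline interaction. With GC and length offsets those of complex IV moved to -0.07 for MCT1KO against WT without a pump, -0.02 for saline against no pump in WT and -0.04 for the saline interaction. Within that spread, the members' median in the saline interaction went from 0.08 to -0.13 with Xist and -0.04 with GC and length offsets. Its value was -0.08 without MCT1KO saline 3 and 0.23 without MCT1KO saline 4. That of the Ang/PE interaction went from 0.11 to 0.30 with the replicate block and -0.05 without MCT1KO saline 4, and that of Ang/PE against saline in WT from -0.01 to -0.15 with the block.

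Of 1477 values of named genes under the alternatives, 44 changed sign, 12 lost and 3 gained a call, and none of the 44 had been called. With atrial and fat scores these were Cox8a (-0.11) and Cox6a1 (-0.13) in MCT1KO against WT with saline, Ndufa12 (-0.0026) and Cox7b (-0.033) in Ang/PE against saline in WT, Cox7a2l (-0.084), Ndufs5 (-0.080), Atp5s (-0.054), Cox6a1 (0.23) and Cox8a (0.20) in the same comparison in MCT1KO, Cox6a1 (-0.095) in saline against no pump in MCT1KO, and Ndufa8 (-0.0037) in the Ang/PE interaction. Without the 2 hearts that stand apart, Cox6a1 became -0.13 in MCT1KO against WT with saline and Cox8a 0.047 in Ang/PE against saline in MCT1KO. The replicate block turned Atp5a1 in MCT1KO against WT without a pump (-0.015, and -0.013 with GC and length offsets) and Cox7a2 in the saline comparison (-0.020), and with GC and length offsets Cox7b in the Ang/PE interaction (0.024). The Xist covariate turned Cox7a2 (-0.069) in MCT1KO against WT with saline, Ndufc2 (-0.067) in saline and Ndufa11 (-0.050) in Ang/PE against no pump in MCT1KO. Sdha in Ang/PE against no pump in WT, at 0.0016, was -0.00698 without the filter, -0.00712 without mitochondrial genes, -0.0061 with Xist, -0.00719 with GC and length offsets, -0.021 with the replicate block and -0.031 with block and offsets.

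Leaving out single hearts turned 10 of these values, with ranges of -0.064 to 0.16 for Ndufa10 and -0.049 to 0.14 for Atp5a1 in MCT1KO against WT without a pump, -0.13 to 0.52 for Cox6a1 and -0.15 to 0.20 for Cox7a2 with saline, and -0.00024 to 0.12 for Ndufa11 with Ang/PE. They were -0.24 to 0.037 for Cox8a and -0.19 to 0.034 for Ndufc2 in Ang/PE against saline in MCT1KO, -0.10 to 0.18 for Ndufc2 in saline and -0.0027 to 0.17 for Ndufa11 in Ang/PE against no pump in MCT1KO, and -0.069 to 0.13 for Sdha in Ang/PE against no pump in WT. All 81 members passed the filter on low counts, and thinning every library to 12216704 counts gave 16 called, 15 of them among the 16 of the full counts (Ndufv2 was lost and Uqcr10 gained); with 3 to 6 hearts a group, small differences could not be detected.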

Other observations

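Ndufb1-ps was left out of the members for the letters "-ps" in its symbol, which alone do not settle whether it is a pseudogene. The other rows left out for those letters had means of 0.757 CPM or less. Ndufb1-ps had a mean of 29.6 CPM over the 25 hearts. It was at 41.9 ± 6.53 CPM in WT hearts without a pump (SD, n = 4), 30.3 ± 6.88 in MCT1KO without a pump (n = 3), 25.8 ± 2.50 in WT saline (n = 6), 23.5 ± 9.53 in MCT1KO saline (n = 4), 32.8 ± 7.82 in WT Ang/PE (n = 3) and 27.6 ± 4.67 in MCT1KO Ang/PE (n = 5). The 4 WT hearts without a pump, at 35.5 to 50 CPM, lay above all 6 WT saline hearts, at 21.5 to 28.5 CPM.

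The heart in which a member reached its highest level was most often a WT heart without a pump, 58 of 81 members: 24 in replicate 4, 20 in replicate 1, 12 in replicate 3 and 2 in replicate 2. WT saline 3 was highest for 13 members and WT saline 2 for 5. Of 8 cardiomyocyte markers, 1 was called in WT saline against no pump: Ryr2, the calcium release channel of the sarcoplasmic reticulum, rose by 0.48 (edgeR adjusted p = 0.0492). Among the 7 not called, mean levels without a pump and with saline were 5346 and 4146 CPM for Myl2, 8560 and 7097 CPM for Mb, and 3011 and 2744 CPM for Tnni3. Myl3 was at 3487 and 3425 CPM. Means were higher with saline for Myh6 (21326 and 31410 CPM), Tnnt2 (3342 and 3874 CPM) and Actc1 (7137 and 7865 CPM). The median log2 change over the 8 markers was 0.06.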
